A study of Mus musculus with 24 samples.

Results

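The 80 genes described here encode subunits and assembly factors of the mitochondrial respiratory chain and proteins of the mitochondrial ribosome. They were taken by their symbols alone from the 2372 genes of the deposited liver table: every Nduf, Uqcr and Atp5 gene, Sdha to Sdhd, Cox4 to Cox8 and Cox10 to Cox19, and numbered Mrpl and Mrps genes. The rule found 32 subunits of complex I and the complex I assembly factor Ndufaf3, 3 subunits of complex II, 8 of complex III, 11 of complex IV with 3 complex IV assembly factors, 14 of complex V, and 8 ribosomal proteins. The table is part of the transcriptome, and other genes of these complexes were not analysed here.

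RNA came from whole liver of 24 mice, 12 females and 12 males, each fed the Lieber-DeCarli alcohol diet for 3 weeks. Each mouse had 2 injections of adeno-associated virus (AAV), which carried short hairpin RNAs in all groups, the controls included. The first injection held AAV-shControl or, together, AAV-shKdm5b and AAV-shKdm5c (the Kdm5 vectors). The second held AAV-shControl or AAV-shAhR (the AhR vector). With sex, this gives 8 groups of 3 mice: control vectors, Kdm5 vectors, AhR vector, or both. The labels give no strain, age, promoter of the hairpins or batch, and every mouse was alcohol-fed, so no effect of alcohol can be read from these data. Kdm5b and Kdm5c encode histone demethylases, and AhR is the aryl hydrocarbon receptor, a ligand-activated transcription factor.

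The respiratory chain sits in the inner mitochondrial membrane. Complexes I and II take electrons from NADH and succinate, complex III passes them to cytochrome c, complex IV gives them to oxygen, and complex V uses the resulting proton gradient to make ATP. The hepatocyte is rich in mitochondria, and ethanol oxidation in it yields NADH, the substrate of complex I. The mitochondrial ribosome translates the few chain subunits that mitochondrial DNA encodes; of 28 names for mitochondrial DNA genes, 0 were in the table, so all 80 genes here are nuclear.

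Values are FPKM, sequenced fragments scaled to transcript length and library size. The scaling to length allows only a rough comparison of levels between genes here. How fragments were assigned to genes is not given, and reads shared with processed pseudogenes cannot be judged. The numbering of the 3 mice in a group is only a name. As a check of the vectors, Kdm5c measured 6.39 to 7.21 FPKM in male controls and 4.64 to 5.89 FPKM with the Kdm5 vectors. These groups did not overlap, but the log2 change of -0.38 did not pass the threshold used below (limma adjusted p = 0.139). Males given both vectors measured 4.86 to 5.36 FPKM, also below all male controls. That change, -0.38 log2, did not pass either (limma adjusted p = 0.0785). Against males given the AhR vector alone, at 6.92 to 7.81 FPKM, Kdm5c was lower in males given both by -0.51 log2. This change passed (limma adjusted p = 0.0124), and the groups did not overlap. In females Kdm5c measured 9.32 to 11.1 FPKM in controls and 9.05 to 9.94 FPKM with the Kdm5 vectors, and these groups overlapped. Females given both vectors measured 9.37 to 12.5 FPKM, which also overlapped the controls. Neither female change passed, at -0.09 log2 (limma adjusted p = 0.66) and 0.04 log2 (limma adjusted p = 0.84). Females given both vectors, against those given the AhR vector alone, differed by -0.25 log2, which did not pass (limma adjusted p = 0.29). A fall of Kdm5c was thus not shown in females. Kdm5b and the targeted receptor gene were not analysed here. Of 7 hepatocyte markers 4 were in the table. Their sum was 11986 to 14073 FPKM in female and 14540 to 16932 FPKM in male controls, without overlap. It was 13970 to 18143 FPKM in females given the Kdm5 vectors and 13693 to 16217 FPKM in those given both. Single genes went both ways in controls. Apoa1 measured 7258 to 8909 FPKM in females and 9651 to 10936 FPKM in males, and Hnf4a 169 to 208 FPKM and 116 to 140 FPKM. The part of hepatocyte content in the results was not tested.

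The chain genes were more abundant and less variable than the typical gene of the table. Their median levels over the 24 libraries had a median of 132 FPKM, against 19.1 FPKM for all 2299 genes tested. Of the 80 members, 49 had a median above 100 FPKM and 3 a median under 10 FPKM. In 76 of them the highest library was less than 2 times the lowest, which held for 40.5% of the tested genes. The residual spread within groups had a median SD of 0.12 on the log2 scale for the members and 0.18 for the tested genes. All 80 passed the filter on low values (at least 1 FPKM in at least 3 libraries).

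By complex, complex V and complex IV stood highest. Atp5b, the catalytic beta subunit of the ATP synthase, had the highest median of the set, 514 FPKM (472 to 564 FPKM), and the lowest complex V gene, Atp5f1, had 135 FPKM. In complex IV, Cox6a1 led with 478 FPKM. Complex III ran from 113 FPKM for the core protein gene Uqcrc2 to 262 FPKM for the small subunit gene Uqcr11. Complex II ran from 129 FPKM for the membrane anchor gene Sdhc to 165 FPKM for the iron-sulfur subunit gene Sdhb.

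Complex I was lower and more uneven, with a median of 81.0 FPKM over its 32 subunit genes. It ran from 18.1 FPKM for Ndufa11 to 298 FPKM for Ndufa4, a small subunit first assigned to complex I and since found with complex IV. The assembly factors were low: Ndufaf3 had a median of 8.74 FPKM, Cox18 7.02 FPKM, Cox19 14.1 FPKM and Cox16 20.8 FPKM. The large ribosomal subunit ran from 11.2 FPKM for Mrpl15 to 79.4 FPKM for Mrpl52, and its small-subunit genes Mrps24 and Mrps18b had 41.2 and 45.0 FPKM.

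**Figure D1:**
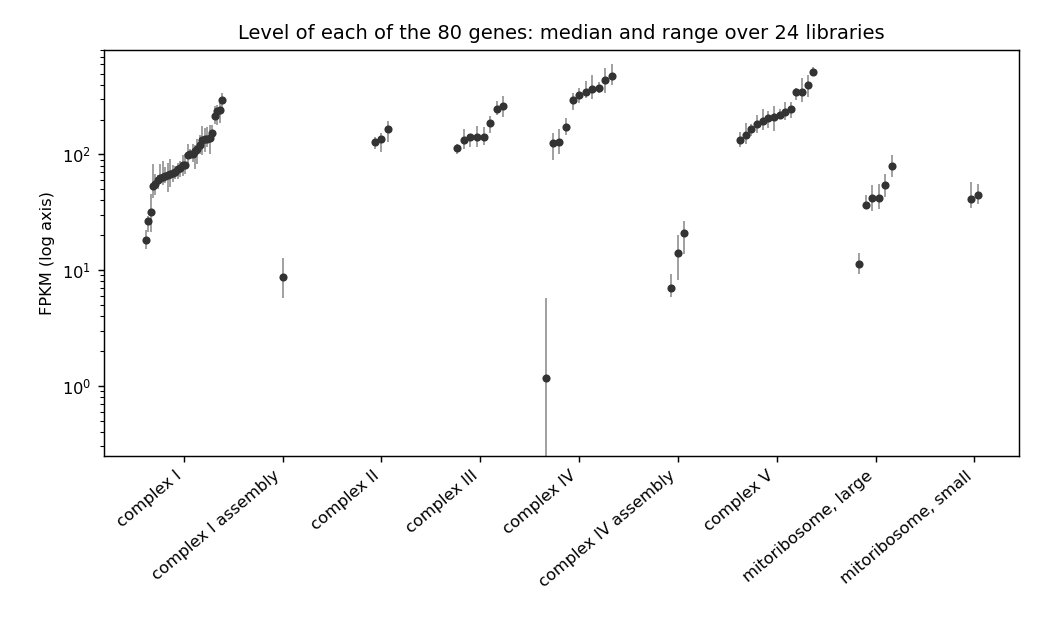
FPKM on a log axis for each of the 80 genes, grouped by complex; points are medians and bars the range over 24 libraries. Complexes IV and V hold the highest genes, up to 514 FPKM, and Cox7a1 lies far below the rest of complex IV at 1.17 FPKM, with its bar cut at the axis because 4 libraries list it at 0.

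Cox7a1 was the exception in complex IV. It encodes the heart and muscle form of subunit VIIa, and Cox7a2 encodes the form found in liver. Cox7a1 had a median of 1.17 FPKM and was listed at 0 in 4 libraries, while Cox7a2 had a median of 124 FPKM and a lowest value of 90.1 FPKM. The promoter windows of this pair are shown because they belong to genes for forms of the same subunit, found at very different levels. That of Atp5l is shown because it holds both NRF-1 and ETS matches and the gene fell in females given both vectors. Each runs from 250 bases before to 50 bases after the transcription start in RefSeq (GRCm38.p6), 5′ to 3′ on the gene's strand. Capitals mark CpG in the first pair and NRF-1 and ETS matches in Atp5l.
Cox7a1, chr7:30183921-30184220, plus strand: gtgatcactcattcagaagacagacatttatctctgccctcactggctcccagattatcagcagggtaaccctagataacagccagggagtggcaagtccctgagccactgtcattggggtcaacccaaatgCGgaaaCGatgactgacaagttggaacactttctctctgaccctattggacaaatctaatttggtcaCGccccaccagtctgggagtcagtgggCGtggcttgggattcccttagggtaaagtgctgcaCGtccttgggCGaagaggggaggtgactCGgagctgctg
Cox7a2, chr9:79759804-79760103, minus strand: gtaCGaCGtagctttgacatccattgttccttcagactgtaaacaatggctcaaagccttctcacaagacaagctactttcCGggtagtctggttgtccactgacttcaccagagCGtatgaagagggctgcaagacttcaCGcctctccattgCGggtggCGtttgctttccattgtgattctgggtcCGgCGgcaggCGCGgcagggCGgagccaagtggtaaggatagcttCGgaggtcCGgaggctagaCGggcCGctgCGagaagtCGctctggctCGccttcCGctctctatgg
Atp5l, chr9:44920693-44920992, minus strand: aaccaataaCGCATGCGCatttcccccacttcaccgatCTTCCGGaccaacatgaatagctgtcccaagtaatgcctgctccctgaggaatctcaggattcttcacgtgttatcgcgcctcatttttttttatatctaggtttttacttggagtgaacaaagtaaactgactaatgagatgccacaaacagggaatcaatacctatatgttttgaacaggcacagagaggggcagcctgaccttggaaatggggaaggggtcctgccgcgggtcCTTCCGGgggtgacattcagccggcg

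The Cox7a1 window holds 7 CpG and the Cox7a2 window 20. The Cox7a2 window lies inside the span annotated for its gene, 79755241 to 79771422, so it may not mark the only start. Windows were found for 67 of the 80 genes, 73 windows in all, with a median of 20 CpG against 7 over all 32851 windows of the same length. Motifs were searched as exact letters on both strands, and matches of different motifs may overlap. NRF-1 (GCGCANGCG), named for a factor of nuclear-encoded mitochondrial genes, was in 26.0% of the member windows and 6.25% of all windows. The ETS core (CCGGAAG), bound by the GABP factor among others, was in 26.0% and 8.86%. YY1 (AAGATGGC) was in 15.1% and 2.75%, the ERR site (TCAAGGTCA) in 1.37% and 0.423%, CCAAT in 42.5% and 37.4%, and TATAAA in 9.59% and 13.6%. Neither Cox7a window holds an NRF-1, ETS, YY1 or ERR match. These counts describe letters, not binding. Atp5h, Cox6a1, Mrps18b and Uqcr11 also hold both NRF-1 and ETS matches, as Atp5l does, and did not pass with both vectors in females. Among the other genes that fell there, Ndufb6 holds an ETS match and Ndufa4, Ndufb2 and Ndufb11 hold neither. No window was found for Cox4i1. A link of these letters to level or change was not tested.

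In some libraries most members lay on one side of their own means, but the complexes did not always go together. In female control 3 the median log2 deviation from these means was -0.06 for complex I and -0.11 for complex V. For the large ribosomal subunit it was 0.13 there. In the first female given the AhR vector it was -0.21 for complex IV and 0.16 for the large ribosomal subunit. The 80 genes summed to between 10804 and 14095 FPKM. Of the 80 members, 62 and 68 lay above their own 24-library mean in the first female controls, but 19 in the third. Of all tested genes 62.3%, 55.5% and 59.3% did so there. With the AhR vector the 3 females had 11, 11 and 56 members above the mean, against 52.8%, 57.6% and 62.9% of the table. With both vectors they had 13, 7 and 34, against 57.9%, 54.9% and 65.8%. With the Kdm5 vectors they had 56, 37 and 54, against 61.2%, 55.9% and 56.9%. Among males given the AhR vector the counts were 54, 71 and 28, against 44.8%, 49.8% and 51.0% of the table. Thus the third female control resembled the lower groups and the third female with the AhR vector the higher ones.

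**Figure D2:**
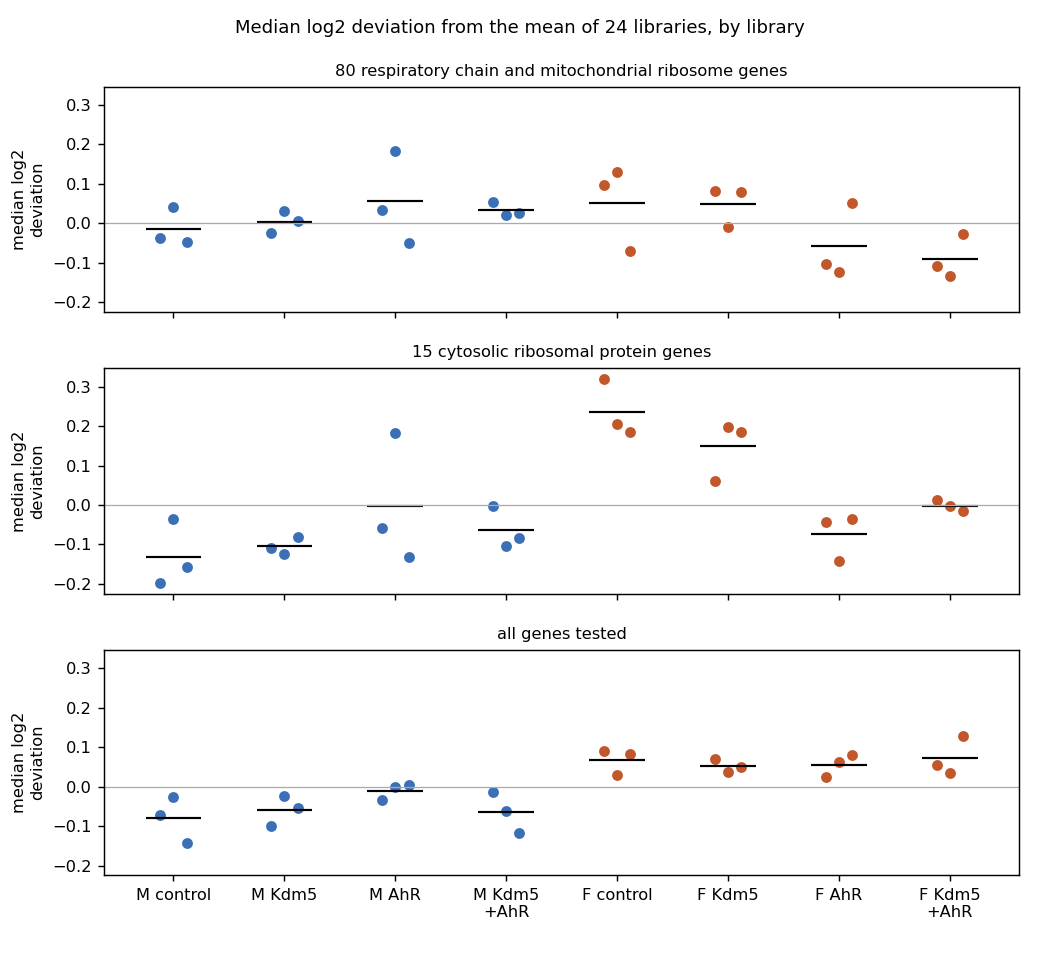
Median log2 deviation from the mean of 24 libraries for the 80 genes (top), 15 cytosolic ribosomal protein genes (middle) and all 2299 genes tested (bottom); points are libraries (blue males, red females), lines group means. The 80 genes are lowest in females given both vectors, at -0.11, -0.13 and -0.03, and the cytosolic ribosomal proteins are highest in female controls.

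Between females and males with control vectors, few of the 80 members differed although sex divided the table. In limma on log2(FPKM + 0.5), with Benjamini-Hochberg adjustment over 2299 genes and a threshold of 0.05, 6 of the 80 members passed. Of all tested genes, 42.5% passed, 30.8% higher and 11.6% lower in females. All 6 members were higher in females: the ribosomal protein genes Mrpl52 and Mrpl15, the complex I genes Ndufb6 and Ndufb11, the complex IV gene Cox4i1 and the complex V gene Atp5e. The median log2 difference was 0.07 for the members and 0.15 over all tested genes.

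Mrpl52 measured 64.8, 75.3 and 63.8 FPKM in male and 96.8, 78.7 and 93.2 FPKM in female controls. These groups did not overlap, and the log2 difference was 0.39 ± 0.12 (standard error; limma adjusted p = 0.0115). Mrpl15, at 9.18, 9.31 and 10.1 FPKM in males and 11.1, 13.3 and 12.4 FPKM in females, differed by 0.34 ± 0.11 (limma adjusted p = 0.0161). Both are proteins of the large subunit of the mitochondrial ribosome. Ndufb6 differed by 0.31, Atp5e, the small epsilon subunit of the ATP synthase, by 0.29, Cox4i1 by 0.21 and Ndufb11 by 0.20 log2. Members at the other end did not pass: Cox19, a copper-related assembly factor of complex IV, stood at -0.29 and Ndufb3 at -0.26 log2.

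These 6 calls depended on scale and on single mice. With median-of-ratios scaling the table median moved from 0.15 to 0.00, 0 members were higher and 8 lower in females, and the 6 genes kept log2 differences above 0. Without female control 2 or 1 the count was 1 or 2, without male control 1 or 3 it was 2 or 3, and with the compared groups alone it was 1. Macrophage and Kupffer cell markers moved with sex: 7 of 11 were in the table, all 7 were higher in female controls, and their sum was 414 to 458 FPKM in females and 197 to 279 FPKM in males. Sinusoidal endothelial markers summed to 84.5 to 100.4 FPKM against 59.3 to 74.9 FPKM, with 4 of 7 higher. Stellate markers summed to 228 to 257 FPKM against 155 to 177 FPKM, with 4 of 5 higher. Their part in the sex comparison was not tested, and in whole liver fewer cells of a type and less RNA per cell cannot be told apart.

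Averaged over the 4 vector settings, 12 females against 12 males, 17 members passed, against 62.3% of the table. Of these, 5 were higher in females, against 42.9% of the table, and 12 lower, against 19.4%. Cox7a1, Mrpl15, Mrpl38, the membrane-ring subunit gene Atp5g2 and the Rieske protein gene Uqcrfs1 were higher. The 12 lower genes were Ndufb3, Ndufs3, Ndufs6, Ndufa13 and Ndufb2 of complex I, Sdha of complex II, Uqcr11 and Uqcrc1 of complex III, Cox7a2, Cox6b1 and Cox5b of complex IV, and Cox19.

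Cox7a2 measured 90.1 FPKM at the lowest, 116 at the median and 143 at the highest in females. In males these values were 123, 132 and 154 FPKM, and 9 of 12 females lay below every male. The log2 difference was -0.23 ± 0.05 (limma adjusted p = 0.000385), with the female mean lower in 3 of the 4 settings and higher with the Kdm5 vectors. Cox7a1 went the other way, with 0, 2.88 and 5.69 FPKM in females and 0, 0.75 and 3.03 FPKM in males as lowest, median and highest. Its log2 difference was 1.06 ± 0.24 (limma adjusted p = 0.000678), on a scale where the added 0.5 FPKM is a large part of each value. The female mean was higher in 3 of the 4 settings.

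Cox19 ran from 8.22 over 11.9 to 15.1 FPKM in females and from 13.4 over 15.5 to 20.2 FPKM in males, a log2 difference of -0.42 ± 0.09 (limma adjusted p = 0.00038). Ndufb3 ran from 21.3 over 26.5 to 35.0 FPKM in females and from 26.9 over 35.5 to 45.6 FPKM in males, with -0.38 ± 0.09 (limma adjusted p = 0.00134). Both female means were lower in all 4 settings, as were those of Sdha, the flavoprotein subunit of complex II (-0.16), Ndufs3 (-0.17) and Uqcr11 (-0.19). Mrpl15 (0.22) and Mrpl38 (0.19) had higher female means in all 4.

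Scale set the balance of this comparison. With median-of-ratios scaling 1 member was higher and 52 were lower in females, the members' median moved from -0.04 to -0.16 and the table median from 0.08 to -0.04. The 12 lower genes still passed as lower and Cox7a1 as higher under it, while Uqcrfs1, Atp5g2, Mrpl15 and Mrpl38 no longer passed, and Uqcrfs1 turned to -0.01 when scaled on non-members alone. Of the 17 genes, 12 passed in each of 24 fits without 1 library. The exceptions were Ndufb2 and Ndufa13, which passed in 6 of them, Uqcrfs1 in 13, Uqcrc1 in 14 and Cox5b in 16.

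In females the Kdm5 vectors moved 1 of the 80 members, Cox7a1, which fell, against 6.87% of the table. Cox7a1 (chromosome 7, 30184171 to 30186030 of GRCm38.p6) measured 1.46, 2.76 and 3.41 FPKM in the controls and 0.74, 0.40 and 0 FPKM with the Kdm5 vectors. All 3 treated mice lay below all 3 controls. The log2 change was -1.83 ± 0.49 (limma adjusted p = 0.0317), with a 95% interval from -2.84 to -0.81. Adding the AhR vector to the Kdm5 vectors raised it: the mice given both measured 5.69, 2.99 and 3.03 FPKM. That change was 2.36 ± 0.49 log2 (limma adjusted p = 0.0174), and 2.09% of the table passed in the same comparison. These comparisons share the females given the Kdm5 vectors alone. Sinusoidal endothelial markers summed to 106 to 108 FPKM with the Kdm5 vectors and 84.5 to 100.4 FPKM in controls, with 2 of 7, Gpr182 and Lyve1, higher. Stellate markers summed to 270 to 298 FPKM and 228 to 257 FPKM, while none of the 5 passed and their median log2 change was -0.18. Macrophage sums overlapped. The part of these cells was not tested.

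With the AhR vector alone females measured 4.35, 1.89 and 3.36 FPKM of Cox7a1, a range that overlaps the controls. In males the gene was low in every group, with 1.19, 1.15 and 3.03 FPKM in controls, 1.52, 0.74 and 0 FPKM with the Kdm5 vectors, 0.38, 1.11 and 0.76 FPKM with the AhR vector and 0, 0.74 and 0 FPKM with both. The males given the AhR vector or both lay below the controls, by as little as 1.11 against 1.15 FPKM, and those given the Kdm5 vectors overlapped them. The male change with both vectors was -1.66 ± 0.49 and did not pass (limma adjusted p = 0.0797). The sex difference of the combined effect, 2.20 ± 0.69 log2, did not pass either (limma adjusted p = 0.0553).

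Cox7a1 passed each of its female calls in 2 of 6 fits without 1 library. The Kdm5 call was lost without control 1 or 3 or Kdm5 mouse 2 or 3, and the call for the added AhR vector without Kdm5 mouse 3 or any of the 3 mice given both. Both calls were also lost with the compared groups alone and with a pseudocount of 0.1, where the changes were larger, -2.85 and 3.46 log2. With a pseudocount of 1 they were -1.36 and 1.82 log2 and passed, so the size of the change depends on this setting. A filter at 5 FPKM left the gene out. The count of members was 2 without Kdm5 mouse 1 in the Kdm5 comparison and 3 without it in the other. Of 13 markers of skeletal and heart muscle, 3 were in the table: Mb and Myh6 were at 0 in all females, and Actc1 was at or under 0.36 FPKM in them. In the 3 male controls Mb measured 2.07, 2.29 and 0.62 FPKM and Myh6 0.60, 0.54 and 0.36 FPKM, and both were at 0 in all other males.

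**Figure D3:**
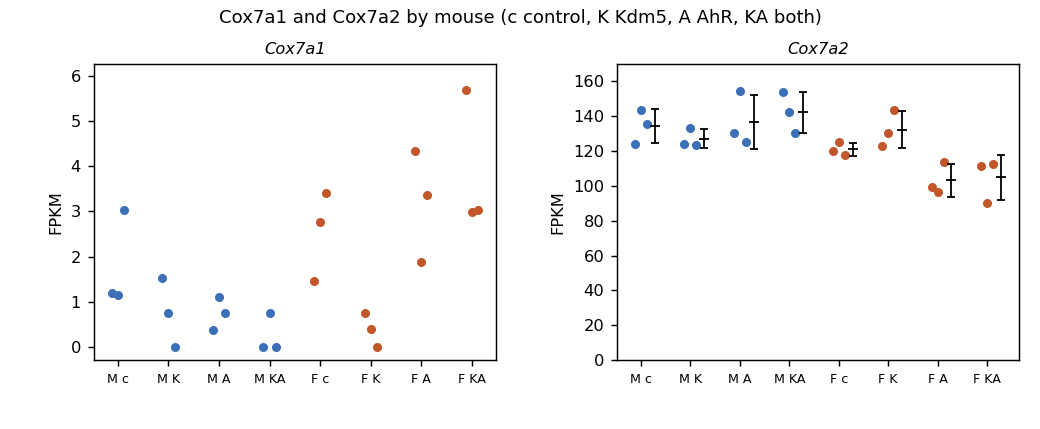
FPKM of Cox7a1 (left) and Cox7a2 (right) in each of 24 mice by group, M male and F female, with the mean and SD of 3 mice drawn for Cox7a2. Cox7a1 lies at or under 0.74 FPKM in the 3 females given Kdm5 vectors and at or above 2.99 FPKM in those given both; Cox7a2 stays above 90 FPKM in every mouse.

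No other member passed under the Kdm5 vectors in females. The median change over all 80 was 0.00, with 38 above and 42 below 0, and the table median was -0.02. In complex I the changes ran from -0.32 for Ndufb6 to 0.29 for Ndufs7, in complex V from -0.12 for Atp5e to 0.32 for Atp5d, and in complex III from -0.16 for Uqcrb to 0.12 for Uqcrfs1. None of these passed. In 75 of the 80 the estimate was within 1.2-fold, compared with 66.4% of the table, and the 95% interval of a single member was typically the estimate ± 0.22 log2.

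With the AhR vector alone, females had lower estimates for most of the members, but none passed. The median change was -0.11, against -0.01 for the table, with 73 of 80 below 0. Without female controls 1, 2 and 3 the median was -0.07, -0.07 and -0.17, and without mice 1, 2 and 3 given the AhR vector it was -0.07, -0.07 and -0.18, with 59 to 76 members below 0. By complex the median was -0.13 for complex I, -0.05 for complex II, -0.13 for complex III, and -0.09 for both complex IV and complex V. Past the threshold were 0.217% of the table. At an unadjusted p under 0.05 there were 8 members and 12.9% of the table. The lowest members were Cox16, an assembly factor of complex IV, at -0.42 ± 0.14 (limma adjusted p = 0.225) and Ndufb4 of complex I at -0.36 ± 0.12 (limma adjusted p = 0.221).

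With both vectors 6 members fell in females and none rose, against 11.6% of the table that changed, 7.79% higher and 3.78% lower. The 6 were Ndufa4, Ndufb2, Ndufb6, Ndufb11, Cox4i1 and Atp5l. Of the others, 70 also had estimates below 0, and the median of all 80 was -0.13 against 0.02 for the table. The medians by complex were -0.15 for complex I, -0.07 for complex II, -0.12 for complex III, -0.17 for complex IV, -0.11 for complex V, and -0.12 for the large and -0.16 for the small ribosomal subunit.

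Ndufa4 (chromosome 6, 11900372 to 11907450) measured 342, 324 and 305 FPKM in female controls and 262, 248 and 244 FPKM with both vectors. The groups did not overlap, and it fell by 0.36 ± 0.09 on the log2 scale (limma adjusted p = 0.015), a 1.29-fold change. Ndufb2, an accessory subunit of the membrane arm of complex I, went from 69.7, 75.0 and 67.7 FPKM to 61.1, 47.2 and 60.7 FPKM. It fell by 0.34 ± 0.09 (limma adjusted p = 0.028). Ndufb6, of the same arm, went from 72.4, 83.3 and 72.6 FPKM to 67.4, 58.8 and 57.6 FPKM, a change of -0.31 ± 0.10 close to the threshold (limma adjusted p = 0.0496).

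Atp5l, subunit g of the ATP synthase (chromosome 9, 44913248 to 44920742), whose promoter is printed above, went from 268, 284 and 236 FPKM to 221, 205 and 227 FPKM. It fell by 0.27 ± 0.09 (limma adjusted p = 0.0494). Cox4i1, the regulatory subunit of complex IV that binds ATP, went from 424, 426 and 394 FPKM to 343, 345 and 353 FPKM, a fall of 0.26 ± 0.08 (limma adjusted p = 0.0455). Ndufb11 (chromosome X, 20615326 to 20617619) went from 176, 179 and 154 FPKM to 149, 142 and 132 FPKM, and fell by 0.26 ± 0.08 (limma adjusted p = 0.0345). In all 6 genes the 3 treated mice lay below the 3 controls. The genes were chosen because they passed this same comparison, so the separation is no separate support. Its share over all tested genes was not counted. Ndufb6, Ndufb11 and Cox4i1 are also among the genes higher in female than in male controls, and both comparisons use the same 3 female controls.

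**Figure D4:**
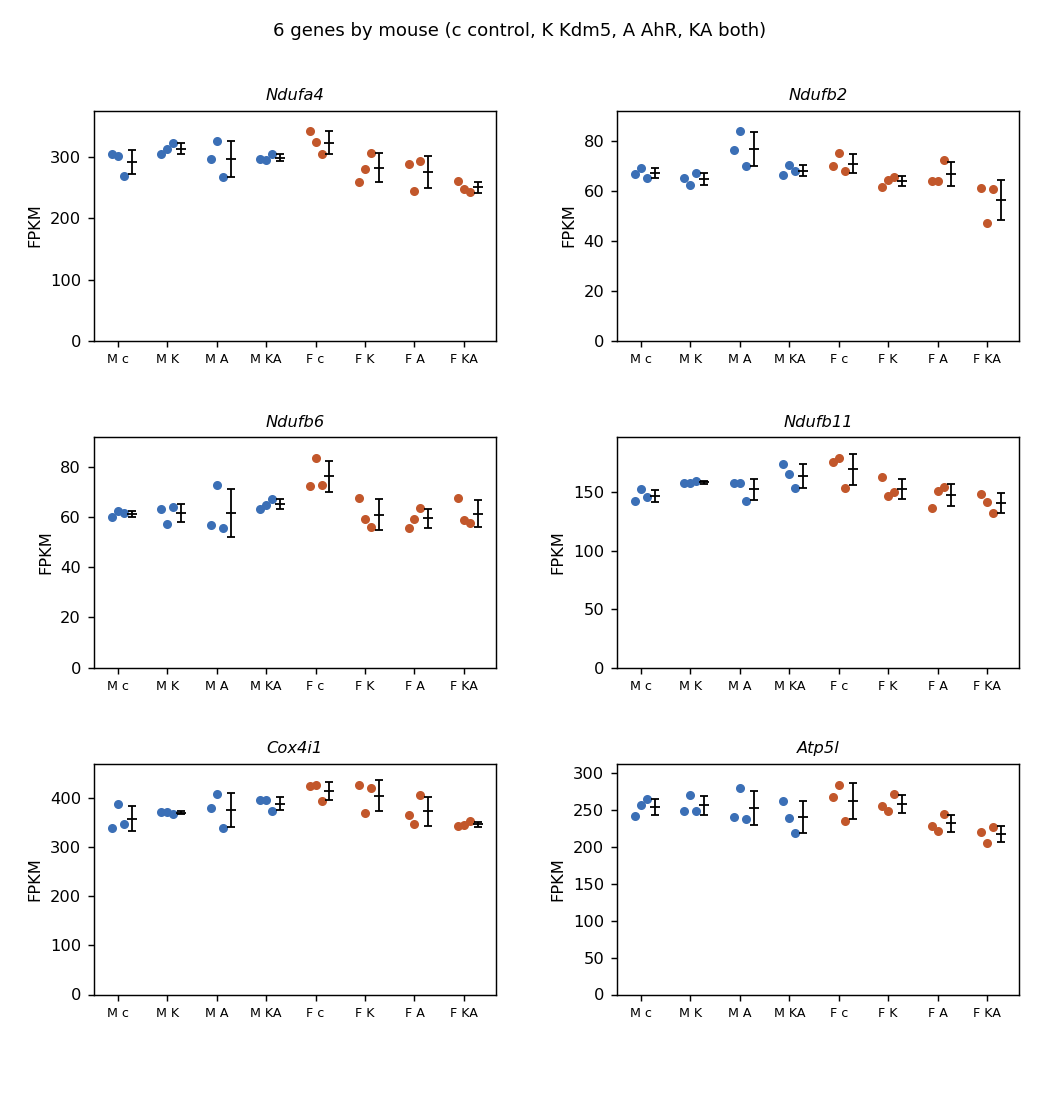
FPKM of the 6 genes that fell with both vectors in females, in each of 24 mice by group, with the mean and SD of 3 mice. The genes were chosen because they passed this comparison. In every panel the 3 females given both vectors lie below the 3 female controls. For Ndufa4 they lie at 244 to 262 FPKM against 305 to 342 FPKM.

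Other low members did not pass, such as Cox16 at -0.40 ± 0.14 (limma adjusted p = 0.0708) and Ndufc1 at -0.37 ± 0.17 (limma adjusted p = 0.15). The count of 6 rested on single libraries: it was 0, 1 and 7 without female controls 1, 2 and 3, and 4, 1 and 1 without mice 1, 2 and 3 given both vectors. With the compared groups alone it was 0, with a pseudocount of 0.1 it was 4, and with median-of-ratios scaling 5. Ndufb6 kept its call in 2 of 8 other settings and lost it, among others, with that scaling and that pseudocount. The median of the 80 genes stayed between -0.19 and -0.09 in these 6 fits without 1 library, and was -0.13 with median-of-ratios scaling.

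The downward shift was not tested as particular to the members, and other genes moved beside it. All 15 cytosolic ribosomal protein genes tested had estimates below 0 with both vectors in females, with a median of -0.23, and Rps27 and Rps9 were among those that passed. With the AhR vector alone all 15 were also below 0, with a median of -0.28 and none past the threshold. The members have short transcripts, with a median longest coding transcript of 963 bases against 2702 in the table. The 503 tested non-members of at most 1655 bases had a median of -0.13 with both vectors and -0.12 with the AhR vector, close to the members' -0.13 and -0.11. The part of transcript length in the shift was not tested.

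Sums of sinusoidal endothelial and stellate markers were also higher with both vectors in females, but few single markers passed. Sinusoidal endothelial markers summed to 84.5 to 100.4 FPKM in female controls and 107 to 123 FPKM with both vectors, and 1 of 7, Gpr182, passed. Stellate markers summed to 228 to 257 FPKM and 265 to 314 FPKM, with 1 of 5, Dcn, past the threshold. Both genes were higher, as were 7.79% of all tested genes that passed in this comparison. Macrophage markers overlapped, at 414 to 458 FPKM and 379 to 497 FPKM. The part of these cells in the result was not tested.

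The remaining female comparisons moved no member past the threshold besides Cox7a1. Adding the AhR vector to the Kdm5 vectors gave a median of -0.15 against 0.05 for the table, with 73 of 80 members below 0. The lowest were Mrps24 at -0.42 ± 0.14 (limma adjusted p = 0.0977), of the small ribosomal subunit, then Mrpl34 at -0.35 and Atp5d and Cox7a2 at -0.34. The 15 cytosolic ribosomal protein genes had a median of -0.17 there, and the short non-members one of -0.10. Adding the Kdm5 vectors to the AhR vector gave a median of -0.02 and no call, against 0.696% of the table. At an unadjusted p under 0.05 there were 3 members and 15.4% of the table. In the interaction of both vectors in females no member passed, against 0.609% of the table, with 3 members and 10.2% of the table at an unadjusted p under 0.05.

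In males no member passed in limma in any of the comparisons between vectors. The Kdm5 vectors gave a median change of 0.02, which became 0.00 with median-of-ratios scaling, with 1.22% of the table past the threshold and, at an unadjusted p under 0.05, 2 members and 9.92% of the table. Mrpl38 was lowest after Cox7a1 at -0.33, and Ndufs7 stood at -0.24. The AhR vector gave a median of 0.06, which became -0.01 with median-of-ratios scaling and 0.00 and 0.11 without mice 2 and 3 given the vector; 1.09% of the table passed, and 4 members and 13.9% of the table had an unadjusted p under 0.05. Here Mrpl52 stood highest at 0.34 and Ndufaf3, a complex I assembly factor, at 0.30. Both vectors gave a median of 0.04, with 2.35% of the table past the threshold and 2 members and 14.7% at an unadjusted p under 0.05. Ndufaf3 stood at 0.35 and Mrpl52 at 0.31.

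Adding the Kdm5 vectors to the AhR vector in males left 1 member and 16.3% of the table at an unadjusted p under 0.05, with 3.26% of the table past the threshold. Adding the AhR vector to the Kdm5 vectors left 0 members and 16.5% of the table, with 0.913% past the threshold. For the interaction in males these values were 1 member and 12.8%, with 1.61% past the threshold. In each of the male comparisons between vectors at least 77 of the 80 estimates were within 1.2-fold.

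The effects in females and males were then compared directly. For both vectors together, 1 member differed between the sexes, Ndufb11, against 5.92% of the table. It encodes an X-linked accessory subunit of complex I. It fell in females, as above, and measured 143, 153 and 146 FPKM in male controls and 174, 165 and 153 FPKM in males given both vectors. These male groups did not overlap, with a narrow gap. The sex difference of the effect was -0.42 ± 0.11 log2 (limma adjusted p = 0.0251). The call was lost in 7 of 12 fits without 1 library, those without female control 1 or 2, male control 1, females 2 or 3 given both vectors, or males 1 or 2 given both. It was also lost with the compared groups alone, where a different member passed. The count of members was 6 without female control 3 and 2 without male control 2. The median difference over the 80 genes was -0.18 against 0.00 for the table, with 74 below 0.

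For the AhR vector no member differed between the sexes, against 0.565% of the table. At an unadjusted p under 0.05 there were 14 members and 13.8% of the table, and the median difference was -0.19 against -0.09 for the table; with median-of-ratios scaling it was -0.10 against 0.00. For the Kdm5 vectors no member differed, against 1.74% of the table, with 6 members and 17.1% of the table at an unadjusted p under 0.05.

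**Figure D5:**
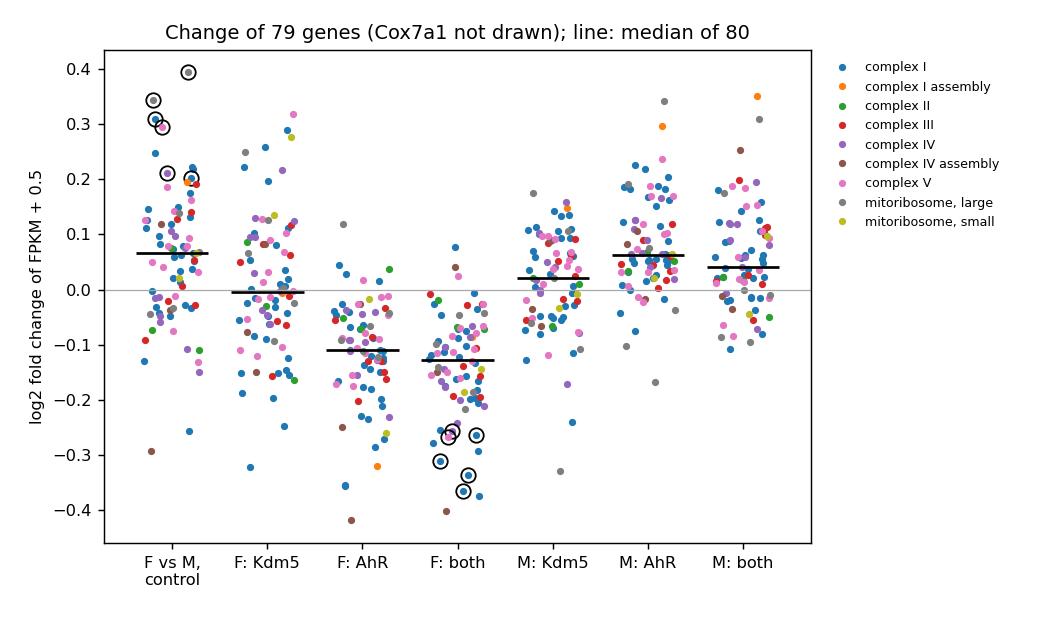
Log2 fold change of FPKM + 0.5 for 79 of the 80 genes in 7 comparisons (F female, M male; both, Kdm5 and AhR vectors), coloured by complex; black lines are medians of all 80 and open circles mark adjusted p under 0.05 in limma. Cox7a1 is not drawn, since its values reach -1.83. Medians lie at -0.11 and -0.13 for females given the AhR vector or both, and between 0.00 and 0.07 in the other 5.

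Other genes that serve the chain were few in the table, and single ones changed. Of 55 electron carriers and other assembly factors 10 were tested. Coq9, a protein of coenzyme Q synthesis, rose in females given the Kdm5 vectors, by 0.27 ± 0.07 log2 (limma adjusted p = 0.0363), the only one of the 10 to pass there. None of the 10 passed with both vectors in females, where their median was -0.17. Between females and males over the 4 vector settings, Coq7 (-0.35) and Coq9 (0.10) passed. Of 37 import and chaperone genes 8 were tested, and Clpx, a subunit of a matrix protease, fell with both vectors in females (-0.62) and in males (-0.75). Pam16, part of the import motor, fell by 0.62 when the AhR vector was added to the Kdm5 vectors in females. Grpel2 was higher in female than in male controls by 0.73 ± 0.14 log2 (limma adjusted p = 0.000263). Over the 4 vector settings Grpel2 (0.60) and Clpx (0.41) were higher in females.

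Of 23 genes of the tricarboxylic acid cycle and pyruvate dehydrogenase 8 were tested. Pdk4, a kinase that inhibits pyruvate dehydrogenase, was higher in female than in male controls by 1.09 ± 0.23 log2 (limma adjusted p = 0.000907), and Idh3b by 0.22. Dlst, of the oxoglutarate dehydrogenase complex, rose by 0.41 with both vectors in females. Of 19 regulators of mitochondrial biogenesis 2 were tested. Ppargc1a, a coactivator of mitochondrial genes, was higher in female controls by 1.18 ± 0.28 (limma adjusted p = 0.00215), with 2.83, 6.79 and 2.79 FPKM against 1.25, 2.03 and 1.04 FPKM. It did not pass for sex over the 4 vector settings, and its Kdm5 effect differed between the sexes by -1.57 ± 0.40 log2 (limma adjusted p = 0.0488). Esrrg, the other regulator tested, was higher in females over the 4 settings by 0.43 ± 0.11 log2 (limma adjusted p = 0.00241). It did not pass with control vectors. Of 37 genes of mitochondrial translation outside the ribosomal proteins 2 were tested, and the tRNA ligase gene Nars2 was lower in female controls by 0.41 log2.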

How the data were processed

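RNA-seq of whole liver from 24 mice was used. The deposited values are FPKM, per the file headers. HISAT and Bowtie2 with GRCm38.p6 are named, per the submitters' processing notes. For the versions of these tools, and for how fragments were assigned to genes, the entry is: not given in the sources used here. Depth is unknown because FPKM removes it, so no counting interval is given, and reads shared with processed pseudogenes cannot be judged. The table holds 2372 genes chosen in a way not stated, so adjusted p-values hold within it only. Groups came from the labels, which number the libraries separately. The p-values set each difference against the spread between mice within groups, estimated over all 8 groups.

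limma 3.58.1 in R 4.3.3 was fitted to log2(FPKM + 0.5), with a mean for each of 8 groups, trend and robust moderation. The filter, 1 FPKM or more in 3 or more of the 24 libraries, kept 2299 genes. A ± is a standard error. There were 17 comparisons. The procedure was tested on simulated data. Members, lists and tests were chosen with earlier results of these data known. Genes named were members past the threshold, the extremes of each complex in level and change, Kdm5c, and up to 4 passing genes per other list. Alternatives were other scalings, pseudocounts and filters, unmoderated variance, the compared groups alone, and leaving out each library. Transcript lengths came from GENCODE M21, positions and promoters from RefSeq GRCm38.p6. Kdm5b and the receptor gene are not reported here.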

Additional observations from a re-analysis of the deposited data

Results flagged for a closer look

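The effect of both vectors on Ndufb11 differed between females and males by -0.42 log2 (limma interaction contrast, adjusted p = 0.0251), with lower values in the 3 treated females than in their controls and higher values in the 3 treated males than in theirs. In males the gap was narrow, with a highest control of 152.9 FPKM and a lowest treated mouse of 153.4 FPKM, and the male change did not pass. The difference between the sexes did not pass with the compared groups alone, and it was lost in 7 of 12 fits without 1 library.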

How the results depend on the processing

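Counts of members that passed moved with some settings. With median-of-ratios scaling (over all genes, then over non-members) the count was 53 and 59 for sex over 4 settings, 2 and 2 for the Kdm5 vectors in females, 2 and 2 for the AhR vector added to them, 2 and 2 for the sex difference of the combined effect, and 1 and 1 for that of the Kdm5 effect. The split of sex over 4 settings was 5 higher and 12 lower in the reported fit, and 1 and 52 or 1 and 58 under these scalings; with control vectors it was 6 and 0, and 0 and 8 or 0 and 9. With the compared groups alone the counts were 1 for sex with control vectors and 0 for both vectors, the Kdm5 vectors and the added AhR vector in females. A pseudocount of 0.1, or a filter at 5 FPKM, gave 0 for the Kdm5 vectors and for the added AhR vector in females. Without trend and robust moderation both vectors in females gave 3, and without a filter the sex difference of the combined effect gave 3. Leaving out 1 library gave 1 to 8 for sex with control vectors, 12 to 24 for sex over 4 settings, 0 to 2 for the Kdm5 vectors, 0 to 7 for both vectors and 0 to 3 for the added AhR vector in females, 0 to 6 for the sex difference of the combined effect, 0 to 1 for that of the Kdm5 effect, and 0 in the other 10 comparisons. Uqcrfs1 in sex over 4 settings reversed to -0.012 with scaling over non-members. Of the gene results under alternatives 569 kept their call, 170 kept their direction without passing and 1 reversed. The cause was not tested. No paired analysis was possible because the replicate numbers are names given in accession order.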
